A study of Mus musculus with 4 samples.

Results

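The genes described here encode the machinery of mitosis and cytokinesis, from the cyclin and CDK1 switch that starts mitosis to the ring that separates the daughter cells. Of 53 genes listed by name for these roles, 52 had at least 1 probe set (a group of short DNA probes for a transcript) that the array annotation gives to that gene alone, out of 18193 named genes. Each gene was represented by its probe set with the highest mean log2 signal over the 4 arrays. No such probe set was found for Ccnb1, which was not analysed here. All 52 passed the filter on dim probe sets, and all stood above background on all 4 arrays: their lowest signal anywhere was 197.2, and the highest background limit of an array was 69.3.

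RNA came from C2C12 cells, a line of mouse myoblasts that divide in serum-rich medium and can be made to fuse into muscle fibres. Cells of both groups had been stably transduced with the lentiviral vector pLKO.1, were selected and kept with puromycin at 2 ug/ml, and were grown in medium with 20% fetal bovine serum. The control group (2 cultures) expressed a control short hairpin RNA (shRNA), which the labels call scrambled in one field and name for luciferase in another. The knockdown group (2 cultures) expressed an shRNA against Sfmbt1, a chromatin protein with MBT repeats. The series text gives the cultures as independently grown, with 1 array each. The labels name a single hairpin per group and do not say whether its cultures came from separate transductions, so the tests measure the spread between these cultures. The comparison asks which genes differ in C2C12 cells grown in this medium when Sfmbt1 is knocked down.

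In the cell cycle, cyclin A2 and the B cyclins activate the kinase CDK1, whose activity drives chromosome condensation, spindle assembly and attachment of chromosomes to microtubules. The spindle checkpoint holds back the anaphase-promoting complex (APC/C) until every chromosome is attached; cohesin is then cleaved, the chromosomes part and the cell divides. Most of these genes are transcribed late in the cell cycle, through a promoter element called CHR (cell cycle genes homology region) that binds the MuvB complex, often together with CCAAT boxes that bind NF-Y. Myoblasts leave the cell cycle when they differentiate into muscle fibres, and these genes are then silenced.

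The upstream sequences of the 2 members that fell in the knockdown, Ncapg and Kif11, are shown to let a reader look for these elements in them. They are taken from RefSeq promoter windows of the GRCm38.p6 mouse assembly and end at the base before the earliest annotated start of the gene. Capitals mark CCAAT boxes (CCAAT, or ATTGG when read on the other strand) and CHR elements (TTTGAA or TTCGAA, or TTCAAA on the other strand), which do not overlap each other here.
Ncapg, chr5:45669741-45669890, plus strand: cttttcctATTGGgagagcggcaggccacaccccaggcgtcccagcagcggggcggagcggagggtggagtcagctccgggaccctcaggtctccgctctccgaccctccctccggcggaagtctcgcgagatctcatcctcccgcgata
Kif11, chr19:37376232-37376381, plus strand: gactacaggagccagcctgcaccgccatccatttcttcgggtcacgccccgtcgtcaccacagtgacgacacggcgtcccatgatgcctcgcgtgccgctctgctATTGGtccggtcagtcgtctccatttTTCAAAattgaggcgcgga
Each stretch holds 1 CCAAT box, and that of Kif11 also holds a CHR.

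The CHR elements of the members with the smallest p and a promoter entry are set out below in 30 bases each, with the element in capitals, to let them be compared. In Ncapg the element begins 30 bases before the start site of the promoter window, which is after the gene's earliest annotated start and so outside the stretch shown above, and in Kif11 it begins 19 bases before it.
Ncapg, chr5:45669883-45669912, plus strand: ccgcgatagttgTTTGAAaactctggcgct
Kif11, chr19:37376351-37376380, plus strand: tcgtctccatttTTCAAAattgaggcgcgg
Ccnb2, chr9:70421533-70421562, minus strand: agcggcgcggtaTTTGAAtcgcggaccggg
Cdc25b, chr2:131186943-131186972, plus strand: ccgctgttatttTTCGAAtatataaggagg
Ect2, chr3:27153829-27153858, minus strand: gagagagcgactggattttTTTGAAtcgga
Racgap1, chr15:99651634-99651663, minus strand: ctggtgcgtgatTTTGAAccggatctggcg
In Cdc25b, Racgap1, Ccnb2 and Ect2 the element shown lies just after the start site, at bases 8, 6, 5 and 40 counted from it. Ccnb2 and Ect2 have a further TTTGAA in the same windows, 167 and 114 bases before the start site.

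A promoter window (250 bases before to 50 after the start) was found for 44 of the 52 members. TTTGAA or TTCGAA, on either strand, was present in 33 of these 44 windows (75.0%), against 19.4% of 27025 windows of the same length, 1 per gene. A CCAAT box was in 31 of them (70.5%, against 37.9% of all windows), and both elements were in 29 (65.9%, against 7.70%). An E2F-type site (TTCCCGC or TTGGCGC, and likewise TTCGCGC and TTGCCGC, on either strand) was in 8 (18.2%, against 9.69%). The members' median log2 difference was -0.17 over the 33 with a CHR and -0.13 over the 11 without one. By CCAAT box it was -0.16 with and -0.20 without, and by both elements together -0.16 with and -0.16 without. By E2F-type site it was -0.22 over the 8 with one and -0.14 over the 36 without. Whether any of these medians differ was not tested. A match is a description of these letters and does not show that a factor binds there.

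On the arrays, median signals lay between 92.8 and 102.7, and the share of probe sets above background was 56.2% on the array of knockdown replicate 1 and 64.3% to 67.6% on the other three. Sfmbt1 itself was read by 5 probe sets, and in each of them both knockdown arrays lay below both control arrays. The 4 that were not in the background range on every array stood at 17.4% to 69.2% of the control. The one at 17.4%, with 1 knockdown array in the background range, passed when all 22893 probe sets were tested (adjusted p = 0.0219), and the other 3 did not (0.0594, 0.333 and 0.339). In the test by gene, where the probe set at 67.7% represents it, Sfmbt1 did not pass (log2 -0.54, adjusted p = 0.316). Of 16 tested markers of differentiated myotubes 13 rose and 0 fell (1.44% and 1.61% of all genes tested). The summed signal over the 17 on the array was 2973 and 2845 on the control arrays, against 12027 and 12624 with the hairpin against Sfmbt1. Of 8 myoblast markers, all above background on every array, 0 passed in either direction, with sums of 15423 and 17193 against 14879 and 15766. Their median log2 difference was -0.25. In 6 of them both knockdown arrays lay below both control arrays and in 2 above (21.5% and 23% of all genes tested). Of 3 tested macrophage and 2 tested endothelial markers 0 passed. The macrophage sums over 4 markers were 664.4 and 755.1 against 534.8 and 736.9, the endothelial ones 401.3 and 384.6 against 326.5 and 356.1, and the defining genes Ptprc and Pecam1 lay in the background range on all 4 arrays. The part of the myotube program in the differences below was not tested. In such bulk RNA, fewer cells in mitosis and less of these transcripts per cell cannot be told apart.

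Ncapg and Kif11 fell in the knockdown and 0 rose. Differences are in log2(signal + 16), knockdown minus control, tested with limma, and a gene was called at a Benjamini-Hochberg adjusted p under 0.05 over all 12866 genes tested. In that test 1.61% of all genes were called lower and 1.44% higher (3.05% in either direction), so 2 of 52 members in all is near the background. Both member calls ended when dim probe sets were kept in the test (adjusted p = 0.0646 for Ncapg and 0.0713 for Kif11) and when the variance was not modelled as a trend on signal level (0.239 and 0.254). With each array centred on its median, the 207 lower and 185 higher calls over all genes became 218 and 339. Most members lay below 0 by small amounts: 44 of 52 had a difference below 0, against 47.8% of all genes tested, and the median was -0.16, against 0.01. The 2 knockdown arrays lay below both control arrays for 25 of the 52 members and above both for 0. Over all genes tested, 21.5% were lower without overlap and 23% higher. At an unadjusted p under 0.05, 9 members were lower and 0 higher, against 7.14% and 7.89% of all genes. That count was not stable: it was 2 lower without control replicate 2, 5 lower and 2 higher without knockdown replicate 1, 14 lower without knockdown replicate 2, 20 with quantile normalization and 19 with the replicate number as a block.

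**Figure D1:**
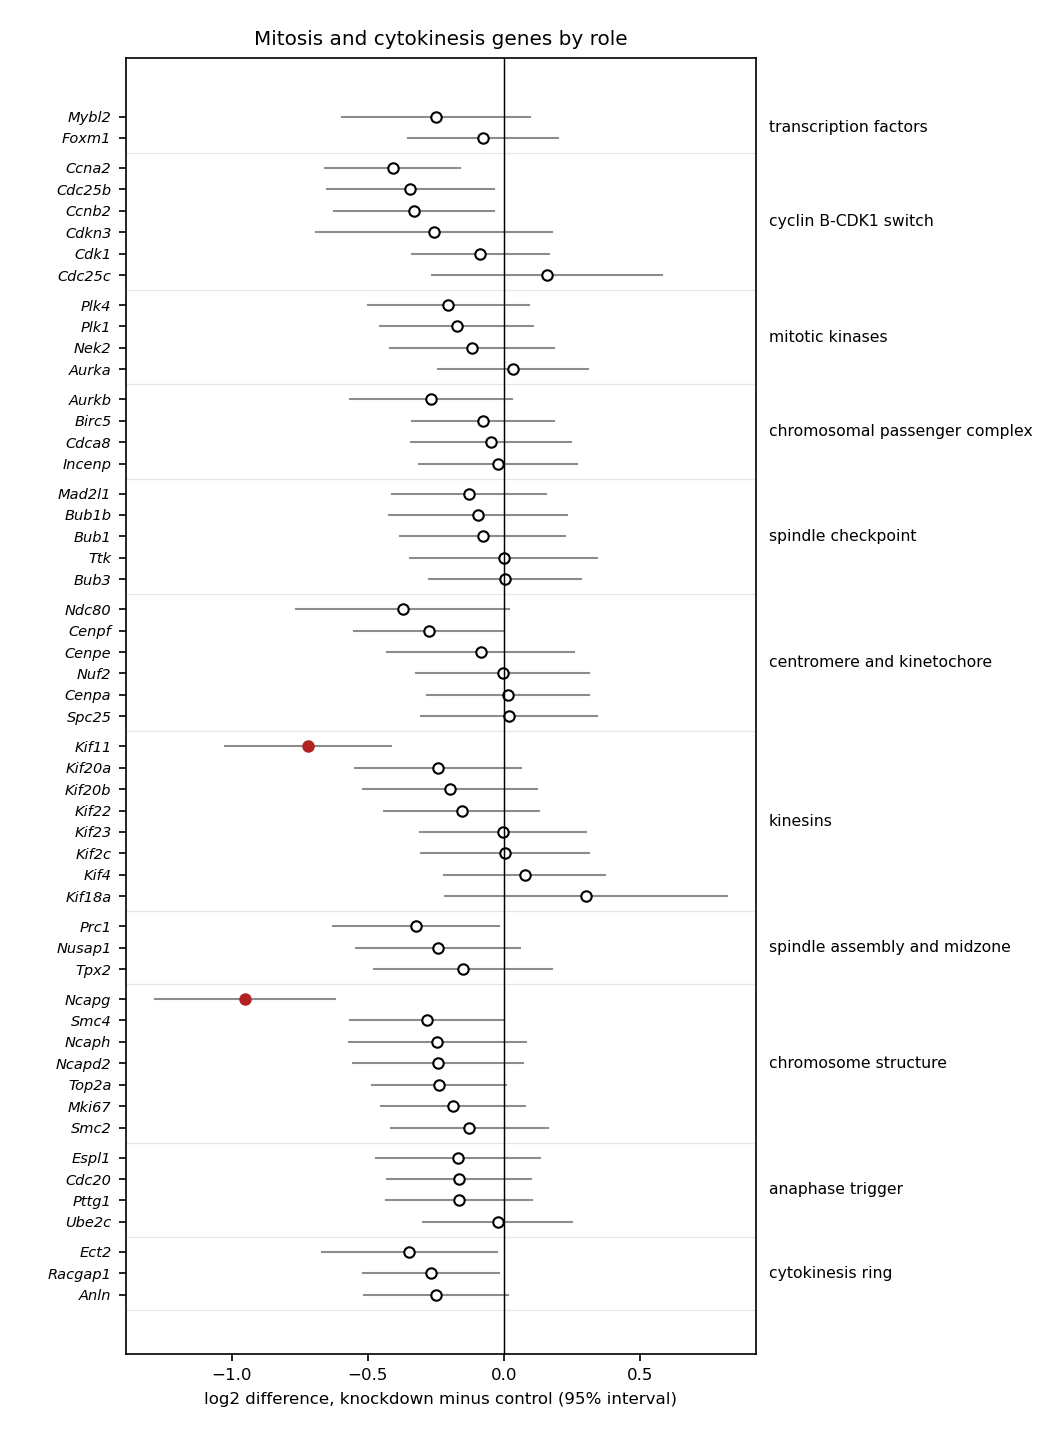
Log2 difference (knockdown minus control; x axis) of each of the 52 measured members, grouped by role; points are limma estimates, bars 95% intervals, and filled points are the 2 members with an adjusted p under 0.05. Ncapg at -0.95 and Kif11 at -0.72 lie apart from the others, which run from -0.41 to 0.30.

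The members' shift was not even over the knockdown arrays. Every one of the 52 members was lower on the array of knockdown replicate 1 than the control mean (median -0.26 log2 units), and 33 of 52 were lower on that of replicate 2 (median -0.09). Over all genes tested those medians were -0.04 and 0.08. Set against the median of all genes on the same array, the members' median stood at 0.05 and 0.11 log2 units for control replicates 1 and 2, and at -0.12 and -0.06 for knockdown replicates 1 and 2. The knockdown medians lay below both control medians on that scale. The array of knockdown replicate 1 was also the one with the fewest probe sets above background (56.2%), and the part of that in the members' shift was not tested. Replicate 1 was below replicate 2 for 44 of 52 members within the control group (67.2% of all genes) and for 43 of 52 within the knockdown group (69.5%). Without knockdown replicate 1, 33 of 52 members lay below 0 (39.8% of all genes), and without knockdown replicate 2 all 52 did (55.3% of all genes).

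Genes of chromosome structure held the member with the largest difference. Condensin is the ring-shaped complex that compacts chromosomes for mitosis, built on the SMC2 and SMC4 ATPases; condensin I adds the subunits encoded by Ncapd2, Ncapg and Ncaph. Ncapg had signals of 1393 and 1111 in control cells against 606.2 and 666.9 in knockdown cells. It stood at 50.8% of the control, with a wide gap between the groups (1252 ± 200 against 637 ± 42.9, SD, n = 2 each; log2 -0.95, SE 0.16, limma adjusted p = 0.00286). A second tested probe set of Ncapg gave a smaller difference in the same direction, from 555.4 and 584.7 to 443 and 536.1 (log2 -0.22), also without overlap. With the mean of the probe sets in place of the brightest, the gene had a log2 difference of -0.59 and did not pass (adjusted p = 0.104).

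The other condensin members were lower by less and did not pass. Smc4 had signals of 2806 and 3301 in control cells against 2319 and 2699 in knockdown cells, without overlap (log2 -0.28, adjusted p = 0.337). Ncapd2 had 1222 and 1277 against 949.9 and 1171 (log2 -0.24, adjusted p = 0.483), also without overlap, and -0.32 in a dimmer probe set. Ncaph had 1260 and 1516 against 1042 and 1301, where the groups overlapped (log2 -0.24, adjusted p = 0.495). A second probe set of Ncaph went from 1143 and 1319 to 887.5 and 910.3, without overlap (log2 -0.44). Smc2 had 1824 and 2167 against 1741 and 1904 (log2 -0.13, adjusted p = 0.742). For the SMC genes too, some dimmer probe sets gave larger differences than the one that represented the gene. In Smc2 the 3 further tested probe sets were all lower without overlap, by log2 -0.95, -0.63 and -0.47, and the first of these, from 935.6 and 669.3 to 329.9 and 492.3, passed when all probe sets were tested (adjusted p = 0.0444). In Smc4 a probe set with 2186 and 2151 in control cells against 1358 and 1540 in knockdown cells (log2 -0.58) passed as well (adjusted p = 0.0405), and the third gave -0.15. Both probe set calls ended without control replicate 1 (adjusted p = 0.197 for Smc2 and 0.181 for Smc4), and that of Smc4 also without control replicate 2 (0.126).

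Condensin II shares the SMC subunits and has its own Ncapd3, Ncapg2 and Ncaph2, which were on a list beside the members. Ncapd3 fell, from 958.9 and 876.9 to 557.6 and 507.1 (log2 -0.77, SE 0.15, adjusted p = 0.0122). Ncapg2 and Ncaph2 differed by -0.39 and -0.32 and did not pass (adjusted p = 0.289 and 0.239). All 8 condensin genes thus lay below 0 (47.8% of all genes did), 2 of them passed (1.61% of all genes were called lower), and in 6 the groups did not overlap (21.5% of all genes); the complex was singled out after these values were seen. The call of Ncapd3 ended without control replicate 1 (adjusted p = 0.0727) and when probe sets shared between transcripts were left out (log2 -0.37, adjusted p = 0.376).

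Top2a and Mki67 complete the chromosome genes. Top2a, the topoisomerase that untangles sister chromatids, had 5648 and 6150 in control cells against 4884 and 5100 in knockdown cells (log2 -0.24, adjusted p = 0.349). A dimmer probe set of it went the other way, from 254 and 228.1 to 262.6 and 320.8. Mki67, which encodes the proliferation marker Ki-67 that coats mitotic chromosomes, had 3050 and 3293 against 2637 and 2941 (log2 -0.19, adjusted p = 0.536). The groups did not overlap in the representative probe set of either gene.

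Among the kinesins, the motor proteins that move along spindle microtubules, Kif11 fell and the other 7 did not pass. Kif11 encodes the plus-end motor that slides spindle microtubules apart and so separates the poles. Its signals were 1240 and 1169 in control cells against 753.3 and 698.1 in knockdown cells, 60.3% of the control. The gap between the groups was larger than the spread within either (1204 ± 50.3 against 726 ± 39, SD, n = 2 each; log2 -0.72, SE 0.14, adjusted p = 0.0122). Its other tested probe sets went from 1022 and 1132 to 750.3 and 765.6 (log2 -0.50) and from 677.2 and 708.6 to 545.9 and 534.5 (log2 -0.35). All 3 probe sets of Kif11 were thus lower without overlap. The call ended without control replicate 1 (log2 -0.68, adjusted p = 0.0660) and with the mean of its probe sets (log2 -0.52, adjusted p = 0.104).

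Kif20a, a motor of the anaphase midzone, had 1413 and 1471 in control cells against 1097 and 1350 in knockdown cells (log2 -0.24, adjusted p = 0.474). Kif20b, a related motor of late cytokinesis, had 816.4 and 897.4 against 709.9 and 781.3 (log2 -0.20, adjusted p = 0.603), and a further probe set gave -0.60. In both genes the groups did not overlap and the 95% interval included 0. The remaining kinesins, Kif22, Kif23, Kif2c, Kif4 and Kif18a, ran from -0.16 to 0.30. Kif18a, which dampens chromosome movements at the metaphase plate, had the highest difference of any member, 218.8 and 197.2 in the control against 204.8 and 328.7 in the knockdown, with overlap and an interval from -0.22 to 0.82. Kif23, the motor subunit of the centralspindlin complex, had nearly equal levels (log2 0.00, interval -0.31 to 0.30).

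**Figure D2:**
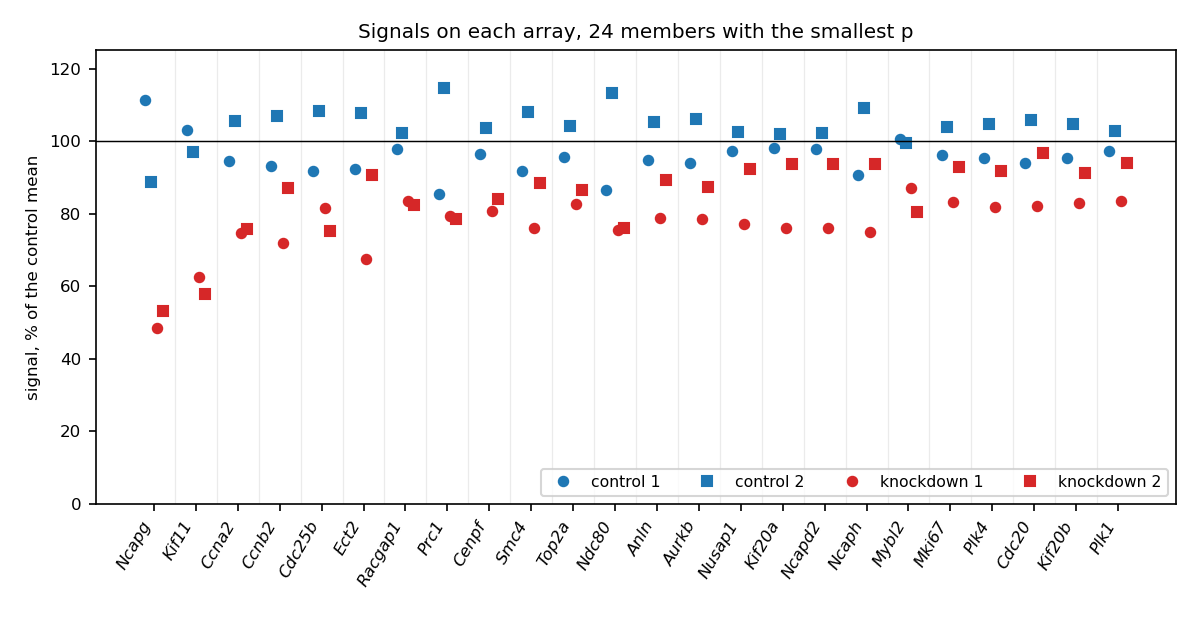
Signal on each of the 4 arrays as a percentage of the control mean (y axis, from 0) for the 24 members with the smallest p, in that order; circles are replicate 1 and squares replicate 2. The knockdown arrays of Ncapg and Kif11 stand furthest below 100, those of most other genes nearer to it. In 22 of the 24 both lie below both control arrays, which the choice by p favours. Over all 52 members this held for 25, and of all genes tested 21.5% were lower and 23% higher without overlap.

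None of the 6 measured genes of the switch that starts mitosis passed, and 5 of them lay below 0 (47.8% of all genes tested did). Ccna2, cyclin A2, had 5803 and 6469 in control cells against 4575 and 4650 in knockdown cells (75.2% of the control; log2 -0.41, SE 0.12, adjusted p = 0.0777). It came closest to the threshold of the members that did not pass, and did pass with each array centred on its median (adjusted p = 0.0341), with quantile normalization (0.0130), with only the upper 40% of probe sets (0.0350) and with the replicate number as a block (0.0187). Ccna2 did not pass with the mean of its probe sets (log2 -0.21, adjusted p = 0.470). Nor did it pass without the filter on dim probe sets (0.207) or without the variance trend (0.410). A second probe set of Ccna2 gave log2 -0.01, with overlap. Ccnb2, cyclin B2, had 2228 and 2560 against 1724 and 2088 (log2 -0.33, adjusted p = 0.266). Cdc25b, the phosphatase that gives CDK1 its first activation, had 1165 and 1375 against 1036 and 953.9 (log2 -0.34, adjusted p = 0.273). As in 21.5% of all genes tested, both knockdown arrays lay below both control arrays in these 3 genes, so the groups did not overlap. Cdk1 itself had 6780 and 7614 against 6388 and 7171, where they did (log2 -0.09, interval -0.34 to 0.17). Cdkn3, a phosphatase that acts on CDKs, and Cdc25c, a later CDK1 phosphatase, differed by -0.26 and 0.16 with overlap.

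Neither of the 2 transcription factors of this program passed. Mybl2, which encodes B-MYB, the partner of MuvB in the activation of mitotic genes, had 578.3 and 570.8 in control cells against 499.6 and 462.5 in knockdown cells (log2 -0.25, adjusted p = 0.518), without overlap, and -0.19 in a further probe set. Foxm1, the forkhead factor that then joins MuvB, had 1730 and 1905 against 1735 and 1707 (log2 -0.08, interval -0.35 to 0.20). A further Foxm1 probe set gave -0.43, without overlap, from 1486 and 1811 to 1334 and 1109.

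Mitotic kinases did not pass in either direction. Plk1, a master kinase of mitotic entry and centrosome maturation, had 1759 and 1857 in control cells against 1509 and 1700 in knockdown cells (log2 -0.17, adjusted p = 0.605). Plk4, which starts centriole duplication, had 1314 and 1445 against 1129 and 1265 (log2 -0.20, adjusted p = 0.546), and its further probe sets gave -0.07 and -0.50. Neither overlapped between the groups in its representative probe set. Aurka, the spindle pole kinase, had 1905 and 2149 against 1990 and 2155, with full overlap (log2 0.03, interval -0.24 to 0.31). Nek2, a kinase that parts the centrosomes, differed by -0.12, also without overlap. Its further tested probe sets gave -0.02 and -0.002, with overlap. Of all genes tested 21.5% were lower without overlap.

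The chromosomal passenger complex corrects faulty attachments and later marks the division plane. Its kinase gene Aurkb had 1333 and 1508 in control cells against 1115 and 1241 in knockdown cells (log2 -0.27, adjusted p = 0.40). A second probe set agreed in direction, with log2 -0.33, and the groups did not overlap in either. Its partners Incenp, Birc5 (survivin) and Cdca8 (borealin) overlapped, with differences from -0.08 to -0.02. For Incenp the probe sets ranged widely, from -0.69, without overlap, to 0.24.

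None of the 5 spindle checkpoint genes passed. Bub1, Bub1b, Bub3, Mad2l1 and Ttk ran from -0.13 to 0.00, all with overlapping groups. Further probe sets did not all overlap: one of Bub1b was lower (log2 -0.25), and in Bub3 one was higher (0.23) and a dim one lower (-0.54, with 1 array in the background range). A dim probe set of Bub1 was higher (0.38), also with 1 array in the background range, and one of Ttk overlapped (0.10). Ttk, which encodes the kinase MPS1 that starts the checkpoint signal, had 611.2 and 760.3 in control cells against 659.2 and 704.7 in knockdown cells. Bub3 had 3449 and 4200 against 3574 and 4073. The 95% interval of Ttk was -0.34 to 0.34 and that of Bub3 -0.28 to 0.28.

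At the centromere and kinetochore, the structure on each chromosome that grips microtubules, 2 of 6 members were lower without overlap and none passed. Of all genes tested 21.5% were lower without overlap. Cenpf, a large coiled-coil protein of the outer kinetochore, had 1862 and 2003 in control cells against 1560 and 1624 in knockdown cells (log2 -0.28, adjusted p = 0.330). Its further probe sets were lower by more, -0.43 and -0.90, and the last, from 386.8 and 323 to 176 and 189, passed when all probe sets were tested (adjusted p = 0.0446) but not without control replicate 1 (0.256). Ndc80, the subunit that binds the microtubule itself, had 421.5 and 551.6 against 367.9 and 370.2 (log2 -0.37, adjusted p = 0.364). Its partners Nuf2 and Spc25 overlapped between the groups, with differences of 0.00 and 0.02; whether they differ from Ndc80 was not tested. Cenpa, the histone variant that marks the centromere, had 2564 and 2685 against 2311 and 3044 (log2 0.02), and the motor gene Cenpe differed by -0.08. A dim Cenpa probe set gave -1.29, with 1 knockdown array in the background range. For Cenpe a further probe set was lower without overlap, from 306.5 and 211.8 to 134.3 and 201.6 (log2 -0.58). It did not pass when all probe sets were tested (adjusted p = 0.319).

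The 3 genes of spindle assembly and the midzone lay below 0, as did 47.8% of all genes tested, and none passed. Prc1, which bundles the antiparallel microtubules of the midzone, had 2314 and 3109 in control cells against 2153 and 2132 in knockdown cells (log2 -0.32, adjusted p = 0.302), and -0.26 in a further probe set. Nusap1, a microtubule-bundling protein, had 1399 and 1474 against 1109 and 1326 (log2 -0.24, adjusted p = 0.467), and -0.18 in a further one. Neither overlapped; Tpx2, which activates Aurora A on the spindle, did (log2 -0.15), and its further probe sets ran from -0.36 to 0.17.

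None of the 3 genes of the division ring passed; in each the knockdown arrays lay below the control arrays, as in 21.5% of all genes tested. Ect2, the exchange factor that activates RhoA at the division plane, had 2001 and 2340 in control cells against 1467 and 1966 in knockdown cells (log2 -0.35, adjusted p = 0.289). The difference of Ect2 depended on the arrays kept. It was -0.56 without knockdown replicate 2, but -0.14 without knockdown replicate 1. Without control replicates 1 and 2 in turn it was -0.46 and -0.23. Racgap1, the centralspindlin subunit that recruits ECT2, had 3734 and 3908 against 3188 and 3153 (log2 -0.27, adjusted p = 0.294), with -0.16 in another tested probe set. Anln, the scaffold protein anillin, had 3550 and 3942 against 2955 and 3346 (log2 -0.25, adjusted p = 0.370), and a dimmer probe set gave 0.15.

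Genes of the anaphase trigger ran from -0.17 to -0.02. Cdc20, the activator of the APC/C, had 5622 and 6331 in control cells against 4902 and 5773 in knockdown cells, with overlap (log2 -0.16, adjusted p = 0.595), and its further probe sets gave -0.05 and -0.14. Pttg1, which encodes securin, had 9611 and 10343 against 7905 and 10020 (log2 -0.16), and Espl1, which encodes the protease separase that securin holds back, 1119 and 1286 against 1083 and 1050 (log2 -0.17). Ube2c, the ubiquitin-conjugating enzyme of the APC/C, had 4429 and 4799 against 4072 and 5064, with full overlap. In Cdc20, Pttg1 and Ube2c it was the array of knockdown replicate 1 that lay lowest.

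Probe sets beyond the representative ones tell how far a member's value depends on which part of its transcripts was read. Of the 52 members 17 had a single tested probe set and 35 had several, which gave 55 further probe sets. Of these 55, 44 lay below 0 and 43 lay on the same side of 0 as the gene's representative. In the lower direction 3 passed, and in the higher 0. The 3 were those of Smc2, Smc4 and Cenpf given above. Of all 22893 probe sets tested 50.7% lay below 0, and 328 were called lower and 220 higher. In this test over all probe sets the representatives of Ncapg and Kif11 passed too (adjusted p = 0.0105 and 0.0240), and without control replicate 1 they did not (0.0643 and 0.122). Probe sets of a gene share arrays and partly transcripts, so they are not replicates.

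**Figure D3:**
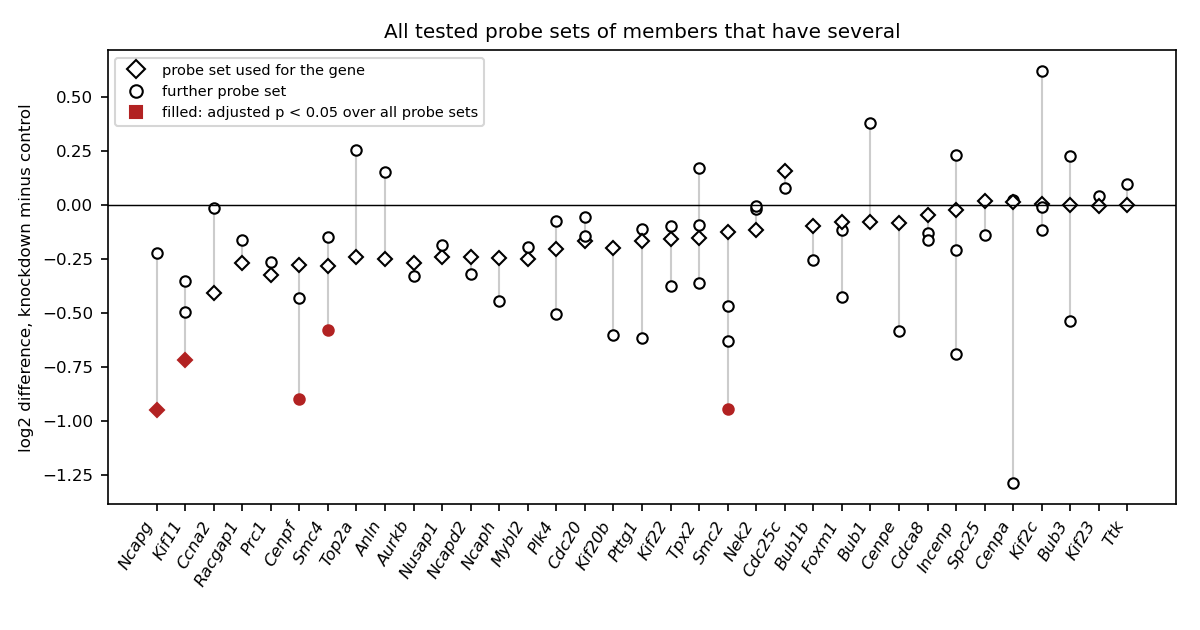
Log2 difference (knockdown minus control; y axis) of every tested probe set of the 35 members that have several, in order of the gene's p; diamonds are the probe sets used for the gene and circles the further ones. Filled symbols mark the 5 probe sets with an adjusted p under 0.05 when all 22893 were tested, those of Ncapg, Kif11, Cenpf, Smc4 and Smc2, all of them below 0.

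Other genes of mitosis, taken from 7 lists with 110 names, were tested in the same way. Of 106 tested, 0 rose and 1 fell (Ncapd3, above), against 1.44% and 1.61% of all genes. Of the 106, 66 lay below 0 (62.3%, against 47.8% of all genes) and the median was -0.06. Whether they differ from the members was not tested. Cohesin, which holds sister chromatids together, had 9 of 12 below 0, with Smc3 at -0.38 (adjusted p = 0.167) and Rad21 at -0.30 (0.228). Among 29 other centromere and kinetochore genes the smallest p belonged to Nsl1, at -0.70 (adjusted p = 0.0659), and Knl1, at -0.55 (0.112), and the median was -0.01. Of 24 other spindle and centrosome genes, the centriole gene Stil stood at -0.57 (adjusted p = 0.126) and Gtse1 at 0.40 (0.203). Of 10 other genes of mitotic entry, Mastl, the kinase that restrains the opposing phosphatase, stood at -0.37 (0.372) and Pbk at -0.24 (0.452). APC/C genes had a median of 0.04, with Cdc23 at 0.26 (0.495) and Anapc7 at 0.22 (0.505), and other cytokinesis genes also had a median of 0.04, with Ist1 at 0.29 (0.340) and Pdcd6ip at -0.24 (0.476).

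Among listed regulators of the cell cycle, some genes were called lower and some higher. Of 11 tested genes of the MuvB and DREAM complexes, which repress or activate CHR promoters, 1 fell and 0 rose (1.61% and 1.44% of all genes). It was Tfdp1, the dimerisation partner of E2F factors, from 3731 and 4187 to 1965 and 2225 (log2 -0.91, SE 0.13, adjusted p = 8.30e-04); the pocket protein gene Rbl2 stood at -0.40 (0.216). Of 11 tested CDK inhibitors and genes of cell cycle exit 2 rose and 2 fell (1.44% and 1.61% of all genes). Cdkn1a, the inhibitor p21 that halts the cycle in differentiating myoblasts, rose from 1924 and 1829 to 2666 and 2890 (log2 0.56, adjusted p = 0.0224), and the cyclin G1 gene Ccng1 rose by 0.52 (adjusted p = 0.0266). Cdkn2d, an inhibitor of CDK4 and CDK6, fell by 0.99 (adjusted p = 0.00162), and the cyclin G2 gene Ccng2 fell by 0.66 (0.0322). The calls of Cdkn1a, Ccng1 and Ccng2 ended without control replicate 1 (adjusted p = 0.0608, 0.165 and 0.0749) and without control replicate 2 (0.125, 0.0516 and 0.175), and that of Ccng1 also without knockdown replicate 2 (0.0781).

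The earlier G1/S step and DNA replication were read from a further list. Of 54 tested, 1 rose and 1 fell, against 1.44% and 1.61% of all genes. Of the 54, 32 lay below 0 (59.3%, against 47.8% of all genes) and the median was -0.05. Ccne1, cyclin E1, fell by 0.73 (adjusted p = 0.0218), and Pola1, the catalytic subunit of DNA polymerase alpha, rose by 0.95 (adjusted p = 0.00913). The call of Ccne1 ended without control replicate 2 (log2 -0.50, adjusted p = 0.231), without probe sets shared between transcripts (log2 -0.60, 0.110) and with the mean of its probe sets (log2 -0.67, 0.125). With the mean of its probe sets Pola1 stood at 0.22 (adjusted p = 0.822). Without the filter on dim probe sets the calls of Ncapd3, Cdkn1a, Ccng1, Ccng2, Pola1 and Ccne1 ended (adjusted p from 0.0807 to 0.160), and without the variance trend those of Tfdp1 and Cdkn2d ended as well (0.222 to 0.347 for the 8 genes). Whether the members and this list differ was not tested.

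**Figure D4:**
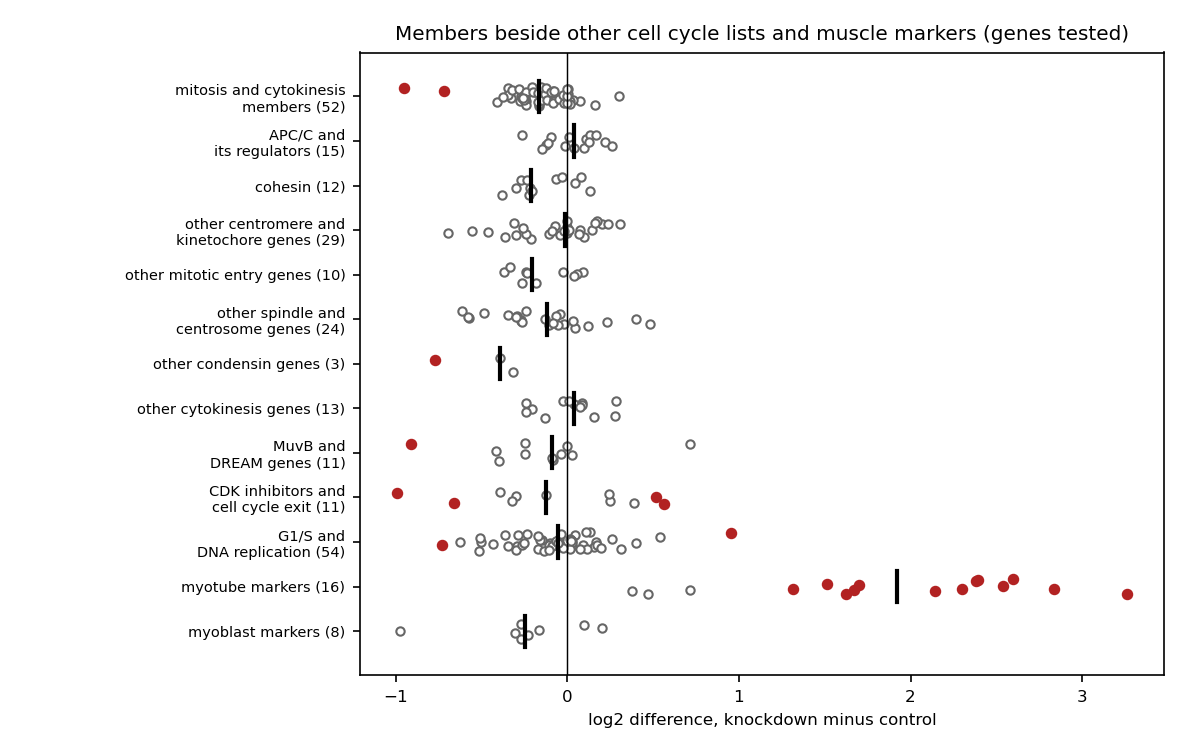
Log2 difference (knockdown minus control; x axis) of every tested gene of the members, of other cell cycle lists and of muscle markers; numbers in parentheses are genes tested, filled points are called genes and vertical bars list medians. The members' median is -0.16 and that of the myotube markers 1.92.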

How the data were processed

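The members and gene lists were chosen with earlier results of these data known. The deposited values are linear intensity values, 1 per probe set; the submitters' processing notes name MAS5 and GCOS as what the authors used; versions and the scaling between arrays are not given in the sources used here. MAS5 subtracts mismatch signal and is noisy for dim probe sets. Of 45101 probe sets, 34945 had 1 gene in the annotation, 932 several, 9160 none in that table, and 64 were controls. Signals were used as deposited, as log2(signal + 16). The dimmest probe sets were dropped and the brightest 60% (a mean level of 57.3 or more) kept, leaving 12866 genes, and tested with limma 3.58.1 in R 4.3.3 (lmFit, and eBayes with a variance trend; 2 residual and 13.8 prior degrees of freedom) and Benjamini-Hochberg adjustment. A 2 against 2 exact permutation test cannot give a two-sided p under 0.333. An array's background limit was set at percentile 95 of its 27 bacterial control signals. The number of arrays limits the precision. By rule, array values are given for called members and the 24 with the smallest p, and other members by range; of each further list the called genes and the 2 with the smallest p are named. Array values of some other members, and any other gene named, were picked with their values in view. The test was checked on simulated data, with genes drawn independently and a spread that followed signal level. No shifts between arrays were simulated, so that check does not cover them. The alternatives tried were other pseudocounts, filters, scalings, a background floor, probe set choices, no variance trend, the replicate block and leaving out each array.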

Additional observations from a re-analysis of the deposited data

How the results depend on the processing

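The main count was 2 members lower and 0 higher. It was 0 lower without the filter on dim probe sets (7 lower at an unadjusted p under 0.05), 0 without the variance trend (3) and 0 with the mean of all probe sets of a gene (8), and 4 with quantile normalization, which added Ccna2 and Top2a. Over all genes limma called 23 higher and 32 lower without the filter, 0 and 0 without the trend, where 1501 had an unadjusted p under 0.05, and 46 and 62 with the mean. Leaving out each array gave 1 to 3 lower members, the 1 without control replicate 1 being Ncapg, and 0 higher was found in every setting run. With arrays left out 33 to 52 members lay below 0 and their median ran from -0.26 to -0.09; in the other settings it ran from -0.20 to -0.12. Centring each array on its median moved the median of all genes from 0.01 to 0.06, with 39 members below 0 and 3 called. With the replicate block 3 members were called, the third being Ccna2 (log2 -0.41, adjusted p = 0.0187); 19 were lower at an unadjusted p under 0.05, against 9 without it. The labels do not say that the numbers pair cultures, and the correlation of the replicates' differences across genes was 0.01, although replicate 1 was the lower one for most genes in both groups. Of the named members 2 changed sign, both with the mean of all probe sets: Racgap1 to 0.058 and Top2a to 0.040. That mean also takes in probe sets below the filter. For Racgap1 it averaged log2 differences of -0.27, -0.16 and 0.60, and for Top2a -0.24, 0.25 and 0.10. The last of each came from a probe set in the background range on all 4 arrays. Signals of all members were well over background, and the number of arrays limits what could be detected.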
